A study of Mus musculus with 4 samples.

Results

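The mitochondrial ribosomal proteins are the nuclear-encoded proteins of the mitoribosome, and their genes carry the symbols Mrpl for the large and Mrps for the small subunit. Members were all probe sets whose platform annotation gives a single gene symbol that starts with Mrpl or Mrps followed by a digit, and the brightest probe set by mean log2 signal stands for each gene. This gave 156 probe sets of 76 genes, 47 of the large and 29 of the small subunit, among 18193 genes on the array. Transcript levels were measured on 4 Affymetrix mouse arrays of J1 embryonic stem cells of the line Chd4i-1, in which doxycycline switches on RNAi against Chd4, the remodelling ATPase of the NuRD complex. The Chd4 knockdown group (2 arrays) had received doxycycline at 5 ng/ml for 3 days. The control group (2 arrays) was the same line without doxycycline. All cells grew on gelatin with leukaemia inhibitory factor and 15% serum. No doxycycline-treated cells without the construct and no further RNAi line were analysed here, so effects of doxycycline, of RNAi and of Chd4 loss cannot be told apart, and both groups come from 1 named line.

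The mitoribosome translates the few messages of the mitochondrial genome, which encode membrane subunits of the respiratory chain and of the ATP synthase. Its RNAs are made inside the organelle, whereas every one of its proteins is made in the cytosol from nuclear genes and imported. Some of the proteins descend from bacterial ribosomal proteins and others were added in the mitochondrial lineage. Embryonic stem cells rely strongly on glycolysis while keeping active mitochondria.

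The signals are MAS5 values on a linear scale, and every difference is of log2 signal in Chd4 knockdown minus control, tested in limma with adjustment over all 12615 genes tested. Chd4 itself was at 48.5%, 56.1% and 65.0% of control by its 3 probe sets. All 7 embryonic stem cell markers lay above the array median in both groups. Of these 7, Esrrb fell (log2 difference -0.29, adjusted p = 0.00445), and Utf1 (0.31) and Dppa5a (0.19) rose. Pou5f1, Sox2, Zfp42 and Nanog did not pass. Pearson's r across the genes tested was 0.985 between the knockdown replicates, 0.986 between the control replicates and 0.968 to 0.969 between arrays of different groups. Arrays of a group are described as biological duplicates, and with 2 per group the precision of every value is limited. Summed signals of 8 fibroblast or feeder markers were 817 to 920 in Chd4 knockdown, against 454 to 585 in control. Of these 8 only Thy1 rose (log2 difference 1.61), while Pdgfrb (-0.35) and Col1a2 (0.26) did not pass. The other 5, among them Col1a1, Col3a1, Dcn and Lum, lay under the signal filter. The sums of 6 trophectoderm markers were 3506 and 3686 in Chd4 knockdown, against 1579 and 1567 in control. Most of this was Tfap2c, which rose, with 2947 and 3200 in Chd4 knockdown and 1229 and 1115 in control. Krt7 rose as well, while Eomes (log2 difference -0.23) and Hand1 (-0.10) did not pass. Cdx2 and Elf5 lay under the filter, with log2 differences of 0.999 and -2.35. For 7 primitive endoderm markers the sums were 1993 and 2023 in Chd4 knockdown, against 1331 and 1415 in control. Most of this was Sparc, which rose, with 1591 and 1684 in Chd4 knockdown and 979 and 1099 in control. Gata4 (log2 difference -0.0074), Gata6 (-0.011), Sox7 (0.96) and Dab2 (0.31) did not pass. Sox17 and Foxa2 lay under the filter, with log2 differences of -1.66 and -1.02. The 5 neural markers on the array summed to 1669 and 1666 in Chd4 knockdown and to 1551 and 1478 in control. Of these, Tubb3 rose (log2 difference 0.30, adjusted p = 0.027), and Pax6 did not pass (-0.42, adjusted p = 0.39). Sox1, under the filter and untested, had 21.3 and 5.4 in Chd4 knockdown, against 129 and 183 in control. Neurog2 (0.89) and Dcx (1.12) also lay under the filter. The part of these cell type markers in the results below was not tested, and in bulk RNA fewer cells of a type and less RNA per cell cannot be told apart.

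All 76 members were bright. Their mean signal over the 4 arrays ran between 1069 and 11440, so that each lay above at least 85.7% of all probe sets and all 76 passed the filter on dim probe sets. Of the 76, 8 rose and 15 fell in Chd4 knockdown at an adjusted p under 0.05, and 53 did not pass. The 23 that passed are 30.3% of the members. Over all 12615 genes tested 20.5% passed, with 11.7% higher and 8.81% lower. Bright probe sets have small errors, and among the 3768 genes in the signal range of the members 28.7% passed, with 14.8% higher and 13.9% lower. The share of members that passed was therefore near that of equally bright genes, and 19.7% of the members fell and 10.5% rose. This split did not hold in every setting. With each array centred on its own median it was 6 higher and 6 lower. Without knockdown replicate 1 it was 9 higher and 8 lower, and without knockdown replicate 2 it was 7 higher and 8 lower. Without control replicate 1 it was 5 higher and 8 lower, and without control replicate 2 it was 8 higher and 7 lower. At an unadjusted p under 0.05 there were 31 of the 76 members, against 4262 of the 12615 genes tested and 1650 of the 3768 in the signal range. The groups did not overlap for 47 members (61.8%), against 60.6% of all genes tested and 68.6% of genes in the same signal range.

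The changes were small. The largest was 1.46-fold, and 16 members (21.1%) differed by at least 1.2-fold, against 41.4% of all genes tested and 22.9% of those in the signal range. No member differed by 1.5-fold, a size reached by 14.8% of all genes tested and 3.66% in the signal range. In limma tested against a change of 1.2-fold 0 members passed, with 4 at an unadjusted p under 0.05. Without the intensity trend in the variance model 0 members passed at a lowest adjusted p of 0.0698, with 15 at an unadjusted p under 0.05. The calls on the members therefore rest on that variance model, in which bright genes have small errors.

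In the large subunit 3 of 47 genes rose (6.38%) and 10 fell (21.3%), and in the small subunit 5 of 29 rose (17.2%) and 5 fell (17.2%). Among genes in the signal range of the members 14.8% rose and 13.9% fell. With 1 array left out the large-subunit split was 6 higher and 6 lower without knockdown replicate 1, and 4 higher and 5 lower without control replicate 2. Without knockdown replicate 2, and likewise without control replicate 1, it was 3 higher and 6 lower. In the small subunit 2 to 4 genes were higher and 2 lower with any 1 array left out. The median log2 difference was -0.03 in the large and -0.02 in the small subunit, against 0.01 over all genes tested. Relative to each gene's mean over the 4 arrays, the median of the large subunit was -0.04 and 0.01 on the knockdown arrays and 0.03 and 0.01 on the control arrays. The median of the small subunit was -0.01 and -0.03 on the knockdown arrays, against 0.03 and -0.01 on the control arrays. These medians differed by no more between the groups than within 1 group, and genes of each subunit lay on both sides of 0. The difference between the subunits was not tested. Mrps18a and Mrps30 carry a small-subunit symbol although their proteins sit in the large subunit, and Mrps36 is now known as part of a dehydrogenase complex. Counted by place in the ribosome, 4 of 49 genes rose and 10 fell in the large subunit, and 4 of 26 rose and 5 fell in the small.

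**Figure D1:**
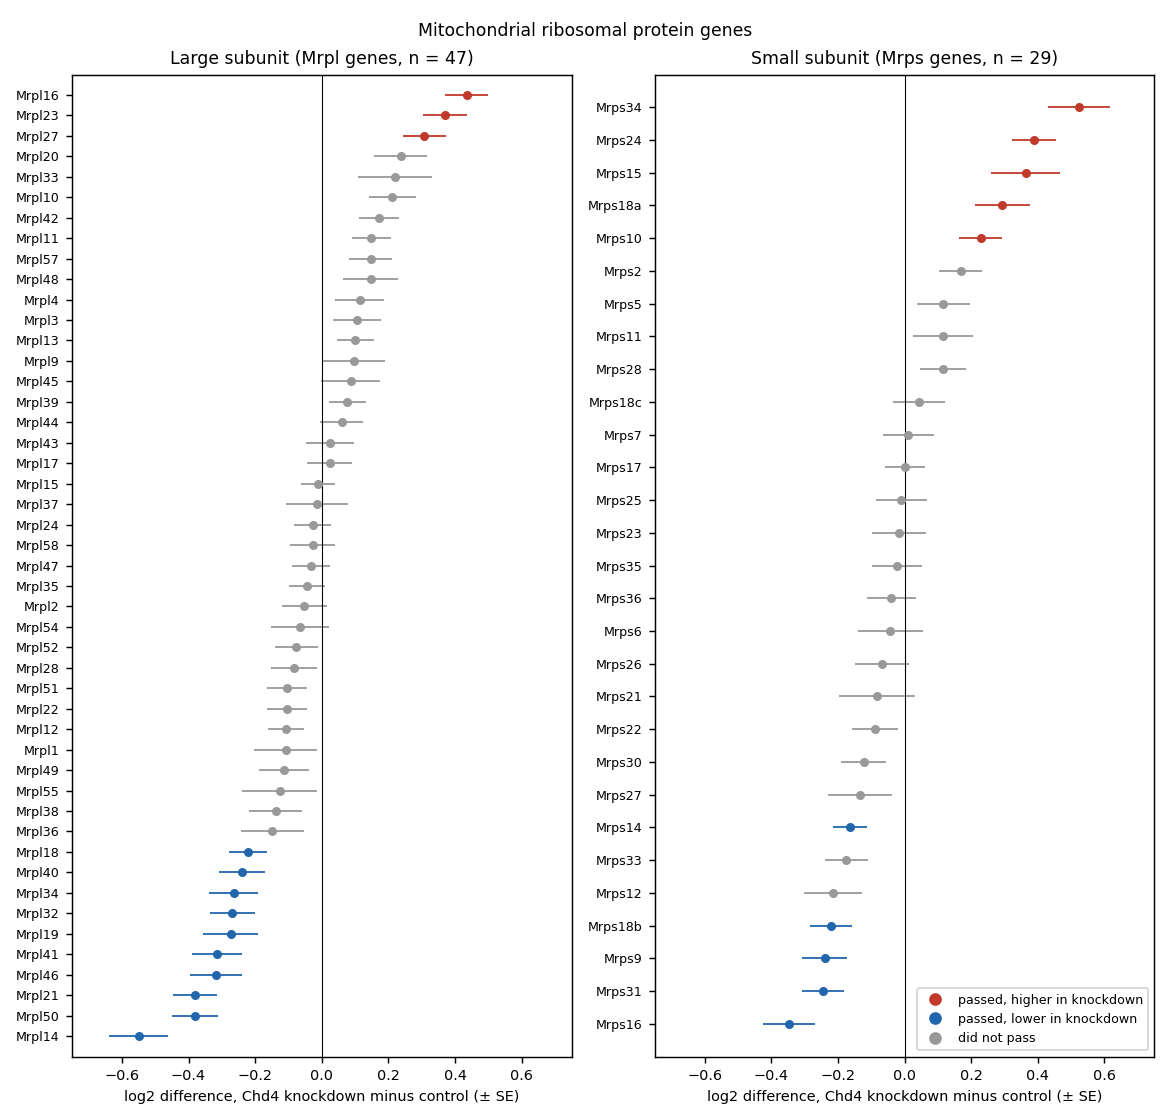
Log2 difference in signal, Chd4 knockdown minus control, with its standard error for each of the 47 large-subunit (left) and 29 small-subunit genes (right), ordered by size, with 2 arrays per group. Red and blue points passed at an adjusted p under 0.05 as higher and lower, and grey points did not; both subunits spread to either side of 0, with 3 red and 10 blue points on the left and 5 of each colour on the right.

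A total of 9 members, 5 higher and 4 lower, passed also with each of the 4 arrays left out in turn. Mrpl14, whose protein lies at the interface between the subunits and binds the assembly factor Malsu1, showed the largest difference of any member. Its signals were 894 and 926 in Chd4 knockdown, against 1392 and 1274 in control, a 1.46-fold fall (log2 -0.55 ± 0.089 SE, adjusted p = 0.00153). Both knockdown arrays lay well below both control arrays. Mrpl21, of bacterial descent, had 2164 and 2153 in Chd4 knockdown and 2741 and 2877 in control, a 1.30-fold fall (-0.38 ± 0.066, adjusted p = 0.00243). Mrpl50, a protein found only in mitochondrial ribosomes, had 1791 and 1871 against 2366 and 2405 in control, a fall of the same size (-0.38 ± 0.069, adjusted p = 0.00305). For these large-subunit genes the gap between the groups was several times the gap between replicates. The call of Mrpl21 ended when all its probe sets were averaged, dim ones included (-0.18, adjusted p = 0.581). Mrps16, whose bacterial counterpart helps fold the small rRNA, had 2712 and 3153 in Chd4 knockdown and 3606 and 3835 in control, a 1.27-fold fall (-0.35 ± 0.078, adjusted p = 0.0094). Its knockdown arrays differed more from each other than its control arrays did, without reaching them.

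Among the rises, Mrpl16, a bacterial-type protein near the site where tRNAs enter the large subunit, had the smallest p of all members. Its signals were 2999 and 3005 in Chd4 knockdown, against 2256 and 2186 in control, a 1.35-fold rise (log2 0.44 ± 0.065 SE, adjusted p = 0.000914). Mrps34, a mitochondria-specific protein needed for a stable small subunit in mice, had 2052 and 1850 in Chd4 knockdown and 1255 and 1465 in control. This was the largest rise, 1.44-fold (0.52 ± 0.093, adjusted p = 0.00265). A further probe set, annotated to both Nme3 and Mrps34 and so not a member, had 754 and 732 in Chd4 knockdown, against 846 and 943 in control (-0.27 ± 0.10, adjusted p = 0.111 among probe sets). The direction of Mrps34 thus rests on 1 probe set. Mrps24, the counterpart of a bacterial protein at the mRNA entry channel, had 3002 and 3151 in Chd4 knockdown, against 2356 and 2341 in control, a 1.31-fold rise (0.39 ± 0.065, adjusted p = 0.00187). Both of its probe sets can match related transcripts, and both rose. Mrpl23, which stands at the exit of the peptide tunnel, had 4056 and 4389 against 3363 and 3170 in control (1.29-fold, 0.37 ± 0.066, adjusted p = 0.00263). Mrpl27, whose bacterial counterpart reaches into the peptidyl transferase centre, had 3335 and 3227 against 2596 and 2705 in control (1.24-fold, 0.31 ± 0.064, adjusted p = 0.00609). The call of Mrpl27 ended when its probe sets were averaged (0.15, adjusted p = 0.53). In the reference gene table Mrpl23 and Mrpl27 each have 1 pseudogene that bears their name, so their signals may include a near-identical copy.

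Promoters are shown here for the 3 rises and the 3 falls with the smallest p that have an entry in the RefSeq promoter table (GRCm38.p6). Each covers 250 bases before the annotated start and 50 from it on. The sequences around the starts of members that moved in opposite directions can so be compared. Capitals mark matches on either strand to 4 words: GCGCANGCG for NRF1, CCGGAAG for GABP and other ETS factors, AAGATGGC for YY1 and CACGTG, the E-box bound by Myc. The first 3 rose and the last 3 fell.
Mrpl16 (GRCm38.p6, chr19:11770165-11770464, plus strand): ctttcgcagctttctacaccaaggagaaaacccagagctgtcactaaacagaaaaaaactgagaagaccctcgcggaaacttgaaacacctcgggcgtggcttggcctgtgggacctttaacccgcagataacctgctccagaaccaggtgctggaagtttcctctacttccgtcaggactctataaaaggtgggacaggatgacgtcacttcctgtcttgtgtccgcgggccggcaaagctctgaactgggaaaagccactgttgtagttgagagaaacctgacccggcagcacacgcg
Mrps24 (GRCm38.p6, chr11:5707652-5707951, minus strand): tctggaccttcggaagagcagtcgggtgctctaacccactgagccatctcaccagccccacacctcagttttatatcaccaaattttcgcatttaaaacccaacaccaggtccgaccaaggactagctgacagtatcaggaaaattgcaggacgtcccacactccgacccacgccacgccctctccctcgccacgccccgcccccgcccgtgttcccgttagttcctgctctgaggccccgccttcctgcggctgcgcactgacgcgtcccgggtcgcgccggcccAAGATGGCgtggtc
Mrpl23 (GRCm38.p6, chr7:142532782-142533081, plus strand): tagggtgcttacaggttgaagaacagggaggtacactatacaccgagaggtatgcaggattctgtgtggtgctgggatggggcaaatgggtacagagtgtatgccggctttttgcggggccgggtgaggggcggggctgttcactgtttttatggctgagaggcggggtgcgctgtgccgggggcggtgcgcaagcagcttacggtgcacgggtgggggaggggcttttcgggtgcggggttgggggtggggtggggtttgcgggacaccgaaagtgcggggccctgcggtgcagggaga
Mrpl14 (GRCm38.p6, chr17:45686099-45686398, plus strand): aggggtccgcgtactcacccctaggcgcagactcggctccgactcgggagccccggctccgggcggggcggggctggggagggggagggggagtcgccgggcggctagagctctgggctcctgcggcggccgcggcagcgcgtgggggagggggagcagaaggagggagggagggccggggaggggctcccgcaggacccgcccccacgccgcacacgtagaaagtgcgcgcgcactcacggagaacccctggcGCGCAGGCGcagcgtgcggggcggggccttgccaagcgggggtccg
Mrpl21 (GRCm38.p6, chr19:3282792-3283091, plus strand): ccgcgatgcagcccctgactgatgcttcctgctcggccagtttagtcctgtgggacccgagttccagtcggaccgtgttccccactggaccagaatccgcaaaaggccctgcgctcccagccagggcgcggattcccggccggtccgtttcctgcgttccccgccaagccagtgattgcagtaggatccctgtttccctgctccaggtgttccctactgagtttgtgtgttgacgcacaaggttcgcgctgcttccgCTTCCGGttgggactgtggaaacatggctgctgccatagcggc
Mrpl50 (GRCm38.p6, chr4:49521034-49521333, minus strand): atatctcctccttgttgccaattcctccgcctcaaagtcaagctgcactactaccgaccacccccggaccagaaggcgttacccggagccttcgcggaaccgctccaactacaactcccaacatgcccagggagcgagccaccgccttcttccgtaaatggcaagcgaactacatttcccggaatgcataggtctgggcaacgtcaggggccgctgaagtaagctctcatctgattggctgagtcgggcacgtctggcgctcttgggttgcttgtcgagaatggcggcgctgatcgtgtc
Matches were found in 3 of these promoters, a YY1 word in Mrps24 from position 37, an NRF1 word in Mrpl14 from position 5 and an ETS word in Mrpl21 from position 8, counted from 1 at the annotated start. Some words can overlap, since the end of the ETS word can run into the start of the YY1 word. Of the 76 members, 67 had a promoter in the table. The ETS word stood in 25 of the 67 (37.3%), against 9.93% of all 27025 genes in the table and 8.86% of all promoters. The NRF1 word stood in 15 (22.4%), against 7.03% of all genes, and the YY1 word in 12 (17.9%), against 3.19%. The E-box stood in 5 members (7.46%), against 8.09% of all genes. By outcome, the ETS word was in 2 of 7 members that rose, 5 of 14 that fell and 18 of 46 that did not pass. For the NRF1 word the counts were 0 of 7, 4 of 14 and 11 of 46, and for the YY1 word 2 of 7, 1 of 14 and 9 of 46. The ETS, NRF1 and YY1 words were thus more common in the promoters of the members than in those of all genes. The members are all bright, and their promoters were not compared with those of equally bright genes. Members with these words were found in each outcome apart from the NRF1 word among those that rose. The E-box was in 5 of 46 members that did not pass and in none of the 7 and 14 that passed. The words are matches of letters and no measured binding.

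**Figure D2:**
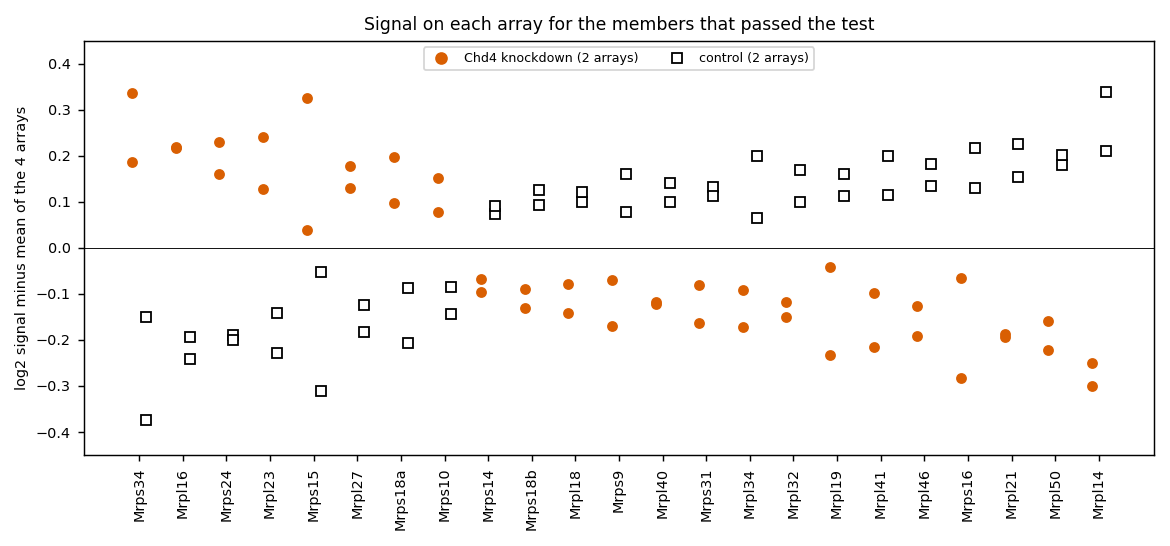
Log2 signal on each array minus the mean of the 4 arrays for the 23 members that passed, ordered from the largest rise to the largest fall, with filled circles for the 2 Chd4 knockdown arrays and open squares for the 2 control arrays. The groups do not overlap for any of the 23, and the gap between them is widest for Mrpl14 and Mrpl16 and narrowest for Mrps15. The 23 were picked by the difference between these groups on the same arrays, so their separation is no further support.

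The other 14 members that passed, 3 higher and 11 lower, each lost the call when at least 1 array was left out, so that their calls are less firm. With probe sets averaged the calls of Mrps10, Mrps15, Mrpl41, Mrps31, Mrpl34, Mrps9, Mrps14 and Mrpl19 among them also ended. Among the large-subunit falls, Mrpl41 had signals of 1817 and 1675 in Chd4 knockdown, against 2108 and 2234 in control (1.24-fold, adjusted p = 0.0133). Its further tested probe set also fell, with 1272 and 1315 against 1749 and 1704 in control (log2 -0.42 ± 0.079 SE, adjusted p = 0.00516 among probe sets). Mrpl46 had 1396 and 1333 in Chd4 knockdown and 1729 and 1672 in control (1.25-fold, adjusted p = 0.0137). Both encode proteins specific to the mitochondrial ribosome. Mrpl32, which the m-AAA protease must cleave before it joins the ribosome, had 2246 and 2296 in Chd4 knockdown and 2669 and 2804 in control (log2 -0.27, adjusted p = 0.0155). Mrpl18 had 4722 and 4932, against 5582 and 5672 in control (1.17-fold, adjusted p = 0.0165). Mrpl34 had 2197 and 2077, against 2690 and 2450 in control (log2 -0.26, adjusted p = 0.0265). These proteins are of bacterial descent, and both knockdown arrays were below both control arrays in each. Mrpl40, a mitochondria-specific protein, had 1914 and 1910 in Chd4 knockdown, against 2226 and 2292 in control (1.18-fold, adjusted p = 0.0297). Mrpl19 had 1480 and 1692, against 1883 and 1945 in control (1.21-fold, adjusted p = 0.0385). The call of Mrpl40 ended with any array left out. The calls of Mrpl41, Mrpl46 and Mrpl34 ended without knockdown replicate 2. Those of Mrpl32, Mrpl18 and Mrpl19 ended without knockdown replicate 1. Without control replicate 1 the calls of Mrpl46, Mrpl34 and Mrpl19 ended, and without control replicate 2 those of Mrpl41, Mrpl32, Mrpl18 and Mrpl19.

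In the small subunit, Mrps31, a mitochondria-specific protein, had 3097 and 3278 in Chd4 knockdown and 3802 and 3750 in control (1.19-fold lower, adjusted p = 0.0169). Mrps9 had 2969 and 2770, against 3292 and 3485 in control (1.18-fold lower, adjusted p = 0.0266). Mrps14 had 7600 and 7755, against 8549 and 8651 in control (1.12-fold lower, adjusted p = 0.0382). Mrps14 had the smallest fold change of the members that passed, and its call ended with any array left out. Mrps15, whose bacterial counterpart binds the small rRNA early in assembly, had 3236 and 2652 in Chd4 knockdown, against 2081 and 2490 in control (1.29-fold higher, adjusted p = 0.03). A second bright probe set of Mrps15 had 2472 and 2363 in Chd4 knockdown and 2307 and 2452 in control, where the groups overlapped. Mrps10 had 3279 and 3449, against 2813 and 2928 in control (1.17-fold higher, adjusted p = 0.0273). The call of Mrps31 ended without knockdown replicate 1 or either control array, that of Mrps9 without either replicate 2, that of Mrps15 without either replicate 1, and that of Mrps10 without knockdown replicate 2 or either control array.

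Mrps18a, Mrps18b and Mrps18c encode 3 related proteins that derive from 1 bacterial ancestor and occupy different places, the first in the large and the others in the small subunit. Mrps18a had 1681 and 1569 in Chd4 knockdown, against 1271 and 1380 in control, a 1.23-fold rise (log2 0.29 ± 0.083 SE, adjusted p = 0.0279). Mrps18b had 2655 and 2579, against 3083 and 3013 in control, a 1.16-fold fall (-0.22 ± 0.063, adjusted p = 0.0312). Mrps18c had 3232 and 2782, against 2840 and 2980 in control, and its groups overlapped (0.04 ± 0.078, adjusted p = 0.745). The 3 relatives thus gave 1 rise, 1 fall and 1 gene that did not pass. The call of Mrps18a ended without either replicate 1 and that of Mrps18b with any array left out. The difference between the 3 genes was not tested.

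Of the 53 members that did not pass, Mrpl20 and Mrps12 had the largest differences in the large and the small subunit. Mrpl20 had 2404 and 2508 in Chd4 knockdown, against 1942 and 2237 in control (log2 0.24 ± 0.080 SE, adjusted p = 0.0591). Mrps12 had 2064 and 2006, against 2576 and 2163 in control (-0.21 ± 0.086, adjusted p = 0.103). In both the groups were separate, but 1 control array stood apart from the other. Mrpl12, the stalk protein that also binds the mitochondrial RNA polymerase, had 5092 and 4945, against 5347 and 5470 in control (-0.11 ± 0.055, adjusted p = 0.196). Mrps30 had 2214 and 2318, against 2431 and 2499 in control (-0.12 ± 0.068, adjusted p = 0.234). The brightest member, Mrpl15, named after its values were seen, had 10988 and 11819 in Chd4 knockdown and 11373 and 11606 in control, with groups that overlapped. Standard errors of the log2 differences ran between 0.050 and 0.11 over the 76 members.

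Ordered by descent, 6 of 45 members with a bacterial counterpart rose and 9 fell (33.3% passed). Of 30 members specific to mitochondria, here with Mrps18a and Mrps18b, 2 rose and 6 fell (26.7%). Over all genes tested 20.5% passed, and among genes in the signal range of the members 28.7%. The median log2 difference was -0.01 in the first class and -0.07 in the second. Mrps18a and Mrps18b were also counted with their bacterial ancestor, a choice made after their values were seen. This gave 7 rises and 10 falls among 47 (36.2%) and 1 rise and 5 falls among 28 (21.4%). The difference between the classes was not tested.

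The choice of probe set bears on these values. A further probe set above the filter existed for 39 members, giving 70 other probe sets, and 40 of these (57.1%) had the same sign as the brightest one. For probe sets at least as bright as the dimmest member the share was 13 of 23 (56.5%), and for dimmer ones 27 of 47 (57.4%). Among the 23 members that passed, 11 had no further tested probe set and 12 did. In 9 of the 12 all further probe sets had the same sign, and in Mrpl19, Mrpl27 and Mrpl34 at least 1 dim probe set had the opposite sign. For Mrpl41, Mrpl50 and Mrps24 a further probe set passed in the same direction, and for none of the 12 did one pass in the opposite direction. The further probe set of Mrpl50 had 775 and 923 in Chd4 knockdown, against 1257 and 1346 in control (-0.62 ± 0.10, adjusted p = 0.00269 among probe sets). Of the members that did not pass, 4 had a dimmer probe set that did. They belong to Mrpl11 (-0.51), Mrpl48 (-0.42), Mrpl49 (-0.45) and Mrps5 (0.45), named after their values were seen. Those of Mrpl11 and Mrpl48 ran against the brightest probe set of the gene. In all, tested probe sets differed in sign for 23 members. Beside Mrpl19, Mrpl27 and Mrpl34 these were Mrpl1, Mrpl3, Mrpl9, Mrpl11, Mrpl13, Mrpl15, Mrpl17, Mrpl28, Mrpl33, Mrpl35, Mrpl39, Mrpl44, Mrpl48, Mrpl51, Mrpl52, Mrpl54, Mrpl58, Mrps2, Mrps5 and Mrps25. Over all 146 tested probe sets of the members 28 passed (19.2%), 10 higher and 18 lower, against 14.2% of the 27022 probe sets tested.

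**Figure D3:**
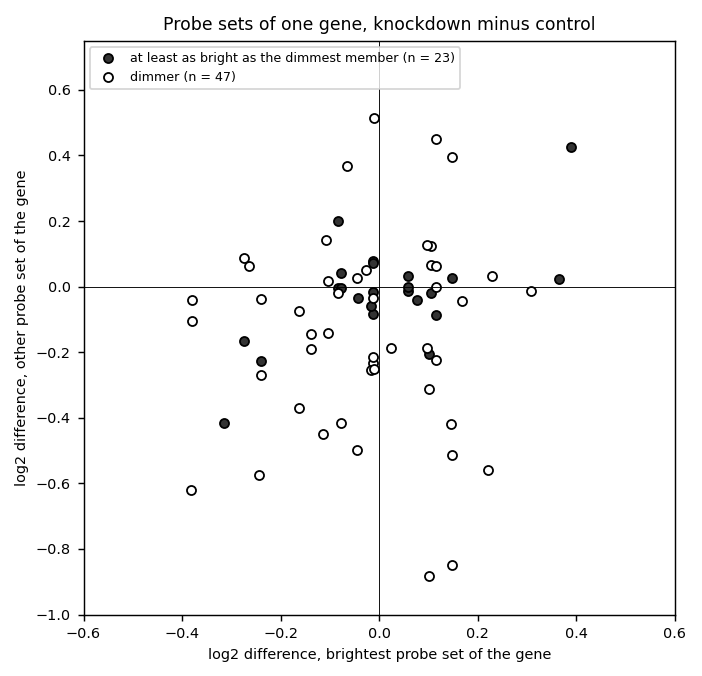
Log2 difference (Chd4 knockdown minus control) of the 70 other tested probe sets of 39 members against that of the gene's brightest probe set, filled where the other probe set is at least as bright as the dimmest member. Points in the lower left and upper right have the same sign in both, which holds for 40 of the 70.

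Assembly of the mitoribosome needs factors that leave before it is complete, and enzymes that modify its rRNAs. Of 25 tested genes for such factors and enzymes, 9 fell (36%) and 0 rose in limma, with 14 at an unadjusted p under 0.05 in either direction. Over all genes tested 8.81% fell, and the median log2 difference of these 25 was -0.24, against 0.01 over all. Their difference from the ribosomal proteins was not tested. Mterf3, needed for assembly of the large subunit, had 2608 and 2646 in Chd4 knockdown, against 3525 and 3847 in control, a 1.40-fold fall (log2 -0.49 ± 0.067 SE, adjusted p = 0.000523). When its probe sets were averaged the log2 difference was 0.076. Trmt61b, a methyltransferase of mitochondrial tRNA and of the large rRNA, had 594 and 541 in Chd4 knockdown and 903 and 876 in control, a 1.57-fold fall (-0.65 ± 0.10, adjusted p = 0.00145). Fastkd2, an RNA-binding protein of large-subunit assembly, had 2100 and 2218, against 2710 and 2735 in control, a 1.26-fold fall (-0.34 ± 0.067, adjusted p = 0.00518). All 3 kept their call with each array left out, and the call of Fastkd2 ended when its probe sets were averaged (-0.14, adjusted p = 0.583).

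The other 6 assembly genes that fell are named after their values were seen. Ngrn, a protein of the large rRNA's maturation, had 2108 and 1999 in Chd4 knockdown, against 2697 and 2507 in control (1.27-fold, adjusted p = 0.00654). Mettl15, a methyltransferase of the small rRNA, had 348 and 367, against 503 and 644 in control (1.59-fold, adjusted p = 0.00737). Nsun4, a further methyltransferase of the small rRNA, had 647 and 616, against 848 and 811 in control (1.31-fold, adjusted p = 0.0181). The groups did not overlap in these 3, as in 60.6% of all genes tested. The 3 were picked by this difference, so their separation is no further support, and the control arrays of Mettl15 differed widely. Mettl17, a factor of small-subunit assembly, had 460 on both knockdown arrays, against 689 and 584 in control (1.38-fold, adjusted p = 0.0209). Mpv17l2, which acts in assembly of the large subunit, had 538 and 544, against 669 and 759 in control (1.32-fold, adjusted p = 0.0283). Dhx30, an RNA helicase, had 3003 and 3045, against 3501 and 3446 in control (1.15-fold, adjusted p = 0.0382). Ngrn alone of these 6 passed with each array left out. The calls of Nsun4, Mpv17l2 and Mettl15 ended without control replicate 2 and that of Mettl17 without control replicate 1 or either knockdown array. Those of Nsun4 and Mpv17l2 also ended without knockdown replicate 2, that of Nsun4 without control replicate 1 and that of Mpv17l2 without knockdown replicate 1. Dhx30 lost its call with any array left out, and its difference was 0.037 under quantile normalization and 0.0303 without probe sets that can cross-hybridise. Without the intensity trend 0 of the 25 passed. The Malsu1 gene, whose protein pairs with that of Mrpl14, also named after its values were seen, did not pass (log2 difference -0.03 ± 0.080 SE, adjusted p = 0.859).

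**Figure D4:**
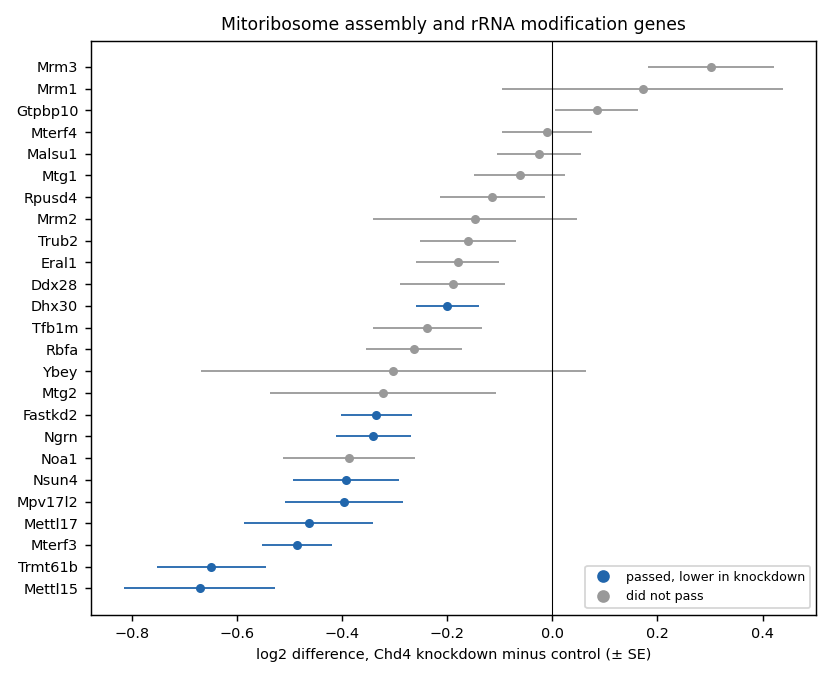
Log2 difference in signal, Chd4 knockdown minus control, with its standard error for the 25 tested genes of mitoribosome assembly and rRNA modification, with 2 arrays per group. The 9 blue points passed as lower, no gene passed as higher, and 22 of the 25 differences lie below 0.

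The other genes of mitochondrial translation gave few calls in short lists. Over all 12615 genes tested 20.5% passed, 8.81% as lower, and 4262 had an unadjusted p under 0.05. The median standard error was 0.091 for translation factors and 0.13 for mitochondrial aminoacyl-tRNA synthetase genes, against 0.070 for the members. These counts are therefore not like for like with those of the members. Among 11 tested translation factors 1 fell (9.09%) and 0 rose in limma, with 4 at an unadjusted p under 0.05. The one that fell was Mtrf1l, the mitochondrial release factor that ends most chains, with 352 and 331 in Chd4 knockdown, against 561 and 549 in control (1.63-fold, log2 -0.70 ± 0.12 SE, adjusted p = 0.00273). The initiation factor gene Mtif3 had 295 and 346, against 211 and 258 in control (0.45 ± 0.17, adjusted p = 0.0917). The recycling factor gene Gfm2 had 1153 and 1148, against 1400 and 1272 in control (-0.21 ± 0.085, adjusted p = 0.102). The groups were separate in all 3, and only Mtrf1l passed. Of 19 tested mitochondrial aminoacyl-tRNA synthetase genes 1 fell (5.26%) and 0 rose, with 5 at an unadjusted p under 0.05. This was Aars2, for alanine, with 353 and 326 in Chd4 knockdown and 493 and 445 in control (1.38-fold, adjusted p = 0.0314). Its call ended without knockdown replicate 2 or either control array. Pars2, for proline, had 413 and 444, against 506 and 617 in control (adjusted p = 0.0634), and Tars2, for threonine, had 1577 and 1837, against 2018 and 1955 (adjusted p = 0.0888). The 4 tested mitoribosomal proteins with other symbols, Dap3, Ptcd3, Chchd1 and Gadd45gip1, gave 0 calls in limma and 0 at an unadjusted p under 0.05. Dap3 had 4933 and 5347 in Chd4 knockdown, against 4745 and 4706 in control (0.12 ± 0.060, adjusted p = 0.186). Ptcd3 had 3287 and 3296, against 3214 and 2687 (0.16 ± 0.082, adjusted p = 0.188), and Gadd45gip1 had 1816 and 1788, against 1912 and 1894 (-0.08 ± 0.071, adjusted p = 0.476).

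Among 17 tested genes of mitochondrial transcription and RNA processing 2 were higher (11.8%) and 2 lower (11.8%). This was near the 11.7% higher and 8.81% lower over all genes tested. Tefm, the elongation factor of mitochondrial transcription, had 1511 and 1779 in Chd4 knockdown, against 1220 and 1205 in control (1.35-fold higher, adjusted p = 0.0067). Lrpprc, which stabilises mitochondrial messages, had 3270 and 3080, against 2617 and 2571 in control (1.22-fold higher, adjusted p = 0.00914). Mterf2, a relative of Mterf3, had 470 and 529, against 695 and 746 in control (1.44-fold lower, adjusted p = 0.00767). The groups were separate in all 3, and leaving out control replicate 2 ended the call of Mterf2 (adjusted p = 0.0523). Hsd17b10, a subunit of mitochondrial RNase P, named after its values were seen, had 2958 and 2876, against 3428 and 3498 in control (1.19-fold lower, adjusted p = 0.0155). Tfam, which packages mitochondrial DNA, had 4504 and 4483, against 4300 and 4408 in control (0.05 ± 0.056, adjusted p = 0.62). Polrmt, the mitochondrial RNA polymerase, had 1021 and 1158, against 1323 and 1283 (-0.26 ± 0.091, adjusted p = 0.0639), and passed without knockdown replicate 2 (adjusted p = 0.0324).

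Among 10 nuclear regulators of mitochondrial genes 1 rose (10%) and 3 fell (30%), against 11.7% and 8.81% over all genes tested. Myc, which is known to raise ribosomal and mitochondrial genes, had 473 and 510 in Chd4 knockdown, against 1242 and 1090 in control, a 2.37-fold fall (log2 -1.24 ± 0.11 SE, adjusted p = 2.41e-05). Gabpa, the DNA-binding subunit of GABP, had 3794 and 3656, against 4413 and 4885 in control, a 1.25-fold fall (-0.32 ± 0.066, adjusted p = 0.00602) that lost its call without control replicate 2 (adjusted p = 0.0511). Ppargc1b, a coactivator, was dim, with 116 and 65.1 against 149 and 218 in control, a 2.07-fold fall (-1.05 ± 0.32, adjusted p = 0.0405). The Ppargc1b call ended without either replicate 2. Hcfc1, a coactivator, had 3443 and 3284, against 2936 and 2895 in control, a 1.15-fold rise (0.21 ± 0.063, adjusted p = 0.0388). The Hcfc1 call ended without either control array or knockdown replicate 1, and its difference was -0.076 when probe sets were averaged. Nrf1 had 782 and 611, against 847 and 874 in control (-0.32 ± 0.12, adjusted p = 0.0934), and passed without knockdown replicate 1 (-0.49, adjusted p = 0.0143). Esrra had 146 and 215, against 194 and 242 in control (adjusted p = 0.427), and Ppargc1a had 51.4 and 36.3, against 37.9 and 75.1 (adjusted p = 0.722). In both of these dim genes the groups overlapped. With the 6 mitochondrial lists pooled, 19 of the 86 genes passed (22.1%), near the 20.5% over all genes tested. Higher were 3 of the 86 (3.49%, against 11.7% over all) and lower 16 (18.6%, against 8.81%). The assembly list alone holds 9 of these 16 lower genes. The pooled split was not tested.

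The cytosolic ribosomal proteins and the respiratory chain are the sets most like the mitoribosome in make-up and in place. Among 48 tested cytosolic ribosomal protein genes 17 rose (35.4%) and 2 fell (4.17%), with a median log2 difference of 0.13. The 76 mitochondrial ones gave 8 rises (10.5%) and 15 falls (19.7%), with a median of -0.03. Over all genes tested 11.7% rose and 8.81% fell. The median standard error was 0.047 for the cytosolic genes and 0.070 for the mitochondrial ones, so these counts are not like for like. Among 78 tested respiratory chain and ATP synthase genes 7 rose (8.97%) and 11 fell (14.1%), with a median of -0.02. The share of these 78 that passed was 23.1%, near the 20.5% of all genes tested. The differences between these sets and the mitoribosomal genes were not tested.

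**Figure D5:**
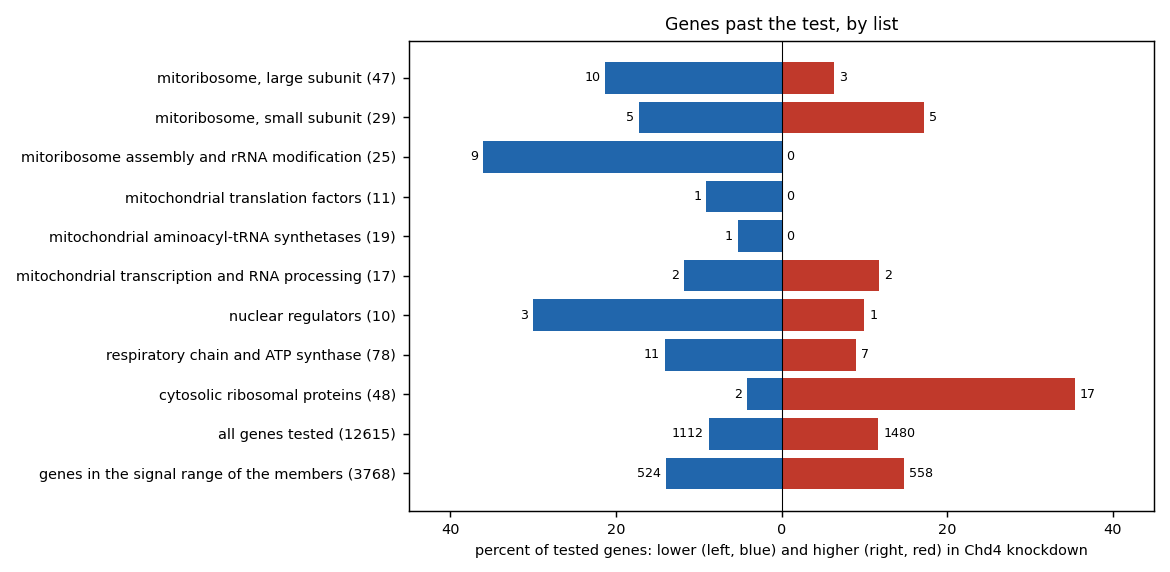
Percent of the tested genes of each list that passed as lower (blue, left) or higher (red, right) in Chd4 knockdown, with the number tested in brackets and the number that passed beside each bar. The large subunit has 10 lower and 3 higher, the small subunit 5 of each, the assembly list 9 lower and 0 higher, and the bottom bars show all genes tested and those in the signal range of the members.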

How the data were processed

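The 4 arrays give 1 signal intensity per probe set on a linear scale, made by the authors with MAS5 per the submitters' processing notes. Its version, scaling target and detection calls are not given in the sources used here. Deposited intensity values have a 2% trimmed mean of 496.5 to 497.2 on each array and were used without further scaling. No replicate arrays held identical values. Gene symbols came from the platform annotation (34945 probe sets with 1 symbol, 932 with several, 9160 with none), and all 76 member symbols matched the reference gene table by Entrez ID. Log2 signals, with no pseudocount, were fitted in limma 3.58.1 under R 4.3.3 (lmFit, then eBayes with the variance trended on intensity). The two-sided test had 2 residual and 9.12 prior degrees of freedom. Genes in the top 60% of the non-control probe sets (signal of 42.4 or more) were tested, 12615 of 18193, with Benjamini-Hochberg adjustment over them. Errors are standard errors of that fit. No set was tested as a whole. The fit was tested on simulated data.

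Members and lists were chosen with earlier results of these data known. Genes named were the members that passed, Mrps18a to Mrps18c, Mrps30, Mrpl12, the largest difference per subunit that did not pass, up to 3 genes with the smallest p per list, members whose probe sets differ in sign (by sign), 8 regulators and Chd4, and others are marked. In the list of proteins with other symbols, Mrpl57 and Mrpl58 were met under their current names as members. Mrpl30 and Mrpl53 have probe sets shared with another gene and were not analysed here.

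Other settings tried were a pseudocount of 16, quantile normalization, median centring, 2 filters, a variance without trend, averaged probe sets, no cross-hybridising probe sets, a replicate block, each array left out and a 1.2-fold null.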

Additional observations from a re-analysis of the deposited data

How the results depend on the processing

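The number of arrays and the small size of the changes limit these results, since most members differ by less than 1.2-fold. Genes changed over all tested were 2592, and 421 without the intensity trend, 1380 with probe sets averaged and 644 against a 1.2-fold null. The large-subunit count of 13 became 8 with arrays centred on their median and 0 both without the trend and against the 1.2-fold null. The small-subunit count of 10 became 4 with median centring, 5 with probe sets averaged and 0 in the same pair of settings. The count of 19 other mitochondrial genes became 2 without the trend and 3 against the 1.2-fold null. The assembly count of 9 became 0, 4 and 1 without the trend, with probe sets averaged and against the 1.2-fold null, a count added after seeing the data. The large-subunit median of -0.03 was -0.10 with probe sets averaged. The cause of these shifts was not tested. With each array left out in turn the counts ran from 1808 to 2079 for all genes, 9 to 12 for the large subunit, 4 to 6 for the small subunit and 10 (without control replicate 2) to 18 for the other mitochondrial genes. The medians then ran from -0.06 to -0.01 for the large and from -0.065 to 0.0090 for the small subunit. With a replicate block 21 members passed (7 higher and 14 lower), all among the 23, and 2260 genes in all, and the calls of Mrps14 and Mrps15 ended. The labels do not say that the replicate numbers pair arrays, so the numbers were not taken as pairs in the main fit. Deviations of same-numbered arrays from their group means correlated at 0.0176 across genes tested and at -0.152 across members. With median centring the members split as 6 higher and 6 lower, against 8 and 15, and all 12 were among the 23. With probe sets averaged 14 passed, 13 of them among the 23. The pseudocount, quantile normalization, both filters and leaving out cross-hybridising probe sets gave 20 to 25 members (Mrps24 had no probe set in the last). No member that passed changed sign under any of the 14 alternatives, but in many of these the sign could not change. The filters, the variance without trend, the replicate block and the 1.2-fold null leave each difference as it was. Leaving out 1 array cannot turn the sign of a probe set whose groups do not overlap, which holds for all 23. Among the other named genes, the difference turned to 0.076 for Mterf3 and to -0.076 for Hcfc1 with probe sets averaged. That of Dhx30 turned to 0.037 under quantile normalization and 0.0303 without cross-hybridising probe sets, and ran from -0.21 to 0.11 with each array left out (0.11 without control replicate 1). In these settings another probe set of Dhx30 can be the brightest.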
